A study of Mus musculus with 8 samples.

Results

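The mTORC1 pathway genes described here are 10 named genes: the stress-induced inhibitors Ddit4, Ddit4l, Sesn1, Sesn2 and Sesn3, the TSC complex genes Tsc1 and Tsc2, the GTPase Rheb, and Mtor and Rptor of mTORC1 itself. They were taken by symbol from a table of 20254 genes, where all 10 had a row. All 10 passed the minimum for testing, as did 15381 genes in all. RNA sequencing was done on nephron progenitor cells of the mouse kidney at embryonic day 17.5, sorted by the green fluorescence of a Six2EGFPcre transgene, which expresses a fusion of GFP and Cre recombinase where Six2, a gene active in these progenitors, is on. In 4 mutant libraries the cells had the genotype VHLNP-/-, which names the loss of both Vhl alleles, and in 4 control libraries VHLNP+/-, which names the loss of 1 allele. All 8 libraries carry the transgene, and by these genotypes the controls also lack 1 Vhl allele, so there is no wild-type group. Nothing in the labels ties the libraries to single embryos or litters, so a p-value covers the variation among these 8 samples, and some of that may be technical.

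mTORC1 is a kinase complex that promotes protein synthesis and growth when nutrients, energy and growth factors are plentiful. Its activator at the lysosome is Rheb bound to GTP, and the TSC complex switches Rheb off. The product of Ddit4, also called REDD1, acts through the TSC complex to restrain mTORC1 in hypoxia and other stress, and Ddit4 is a known target of hypoxia-inducible factor (HIF), which accumulates when Vhl is lost. Sestrins restrain mTORC1 mainly through the GATOR complexes of the amino acid sensing arm. In mouse nephron progenitors a lower dose of Tsc1 has been reported to prolong nephron formation. The libraries measure transcripts, while the activity of mTORC1 depends on phosphorylation and nucleotide binding, which were not measured.

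Levels are given as normalised reads, the reads of a gene divided by the library's size factor. Each fold change is the mutant mean minus the control mean of log2(normalised reads + 1), from a limma fit of all 15381 genes, and a gene was called at a Benjamini-Hochberg adjusted p under 0.05. The libraries held between 37252683 and 46515762 reads in genes. Vhl was at 318 ± 23.2 normalised reads in mutants and 1225 ± 107 in controls (SD, n = 4 each), with no overlap (fell by 1.94, SE 0.08, limma adjusted p = 4.22e-08; two-sided exact permutation p = 0.0286, the smallest that 70 relabellings allow). Deviations of control 3 and mutant 2 from their group means resembled each other across genes (r = 0.57). Xist was low in mutant 2 and control 2 (51.9 and 8.8 normalised reads), against at least 60017 in each other mutant library and 60879 in each other control library. Of 10 nephron progenitor markers all were detected, and their summed level was between 120266 and 131312 normalised reads in mutants and between 125093 and 139032 in controls.

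Bases before RefSeq transcript starts of Ddit4, Ddit4l and Sesn1 are shown because these are the members that were called. A window is the 250 bases before a RefSeq start in the GRCm38.p6 build, read 5′ to 3′ on the strand of the gene. RefSeq starts are not always the outermost starts in GENCODE, whose gene positions are given with the values. The last 64 bases of the Ddit4 window lie in a GENCODE exon of the gene and are not shown, which leaves 186 bases (chr10:59951835-59952020, minus strand). The Ddit4l window (chr3:137623422-137623671, plus strand) lies inside the GENCODE gene, outside its exons. Sesn1 has 2 RefSeq starts. The window of the first lies wholly in a GENCODE exon and is not shown, and that of the second (chr10:41887189-41887438, plus strand) lies inside the gene, outside its exons. Capitals mark the core of the hypoxia response element, the sequence that HIF binds, searched as ACGTG and GCGTG on both strands.
Ddit4: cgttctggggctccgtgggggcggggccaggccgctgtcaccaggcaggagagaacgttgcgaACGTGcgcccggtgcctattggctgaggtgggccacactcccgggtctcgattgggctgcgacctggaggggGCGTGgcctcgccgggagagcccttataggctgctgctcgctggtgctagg
Ddit4l: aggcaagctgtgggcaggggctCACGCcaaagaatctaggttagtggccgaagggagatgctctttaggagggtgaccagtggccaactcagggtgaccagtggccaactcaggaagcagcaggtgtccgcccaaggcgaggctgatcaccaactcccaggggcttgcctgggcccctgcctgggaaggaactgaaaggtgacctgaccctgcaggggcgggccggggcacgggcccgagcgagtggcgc
Sesn1 start 2: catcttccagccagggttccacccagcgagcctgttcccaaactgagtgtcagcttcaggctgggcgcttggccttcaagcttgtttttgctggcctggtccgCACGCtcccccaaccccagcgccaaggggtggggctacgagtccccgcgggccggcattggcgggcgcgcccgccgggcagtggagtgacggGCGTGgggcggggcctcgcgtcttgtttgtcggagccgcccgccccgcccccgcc

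The Ddit4 window holds 2 cores, which begin 187 and 115 bases before the start. The Ddit4l window holds 1, read on the opposite strand. The second Sesn1 start has 2 and the first has 0. Such short letters are common: 38.6% of 32851 windows of this length hold at least 1. Among the other members, the windows of Tsc1 and Tsc2 have 1 each, those of Rheb and Rptor 2 each, and those of Sesn2, Sesn3 and Mtor 0. The 2 matches of Rheb overlap in a single CACGTG, the core of the CLEAR box that TFEB and related factors bind, which is held by 6.02% of the windows. The ATF4-type element TGATGNAAN (3.44% of windows) and the forkhead site GTAAACA (3.17%) were found in 0 of the 11 member windows. A match describes the letters only, and binding was not measured.

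Ddit4 was the member that differed most: it was 3.71-fold higher in Vhl mutant progenitors. Of the other inhibitors, Ddit4l rose 1.24-fold and Sesn1 fell to 81.1% of the control mean. Sesn2, Sesn3, Tsc1, Tsc2, Rheb, Mtor and Rptor were not called. In all, 2 of 10 members were called higher and 1 lower, against a background over all tested genes of 5.4% called higher and 3.03% lower (8.43% in either direction). The median log2 fold change of the members was -0.08, against -0.007 over all tested genes. Before adjustment 2 members passed p under 0.05 upward and 3 downward, where 12% and 11.2% of all tested genes did (23.3% in either direction). In the same 3 called members the libraries of the groups did not overlap, against a background of 15.3% of tested genes (8.54% higher in mutants, 6.72% lower).

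**Figure D1:**
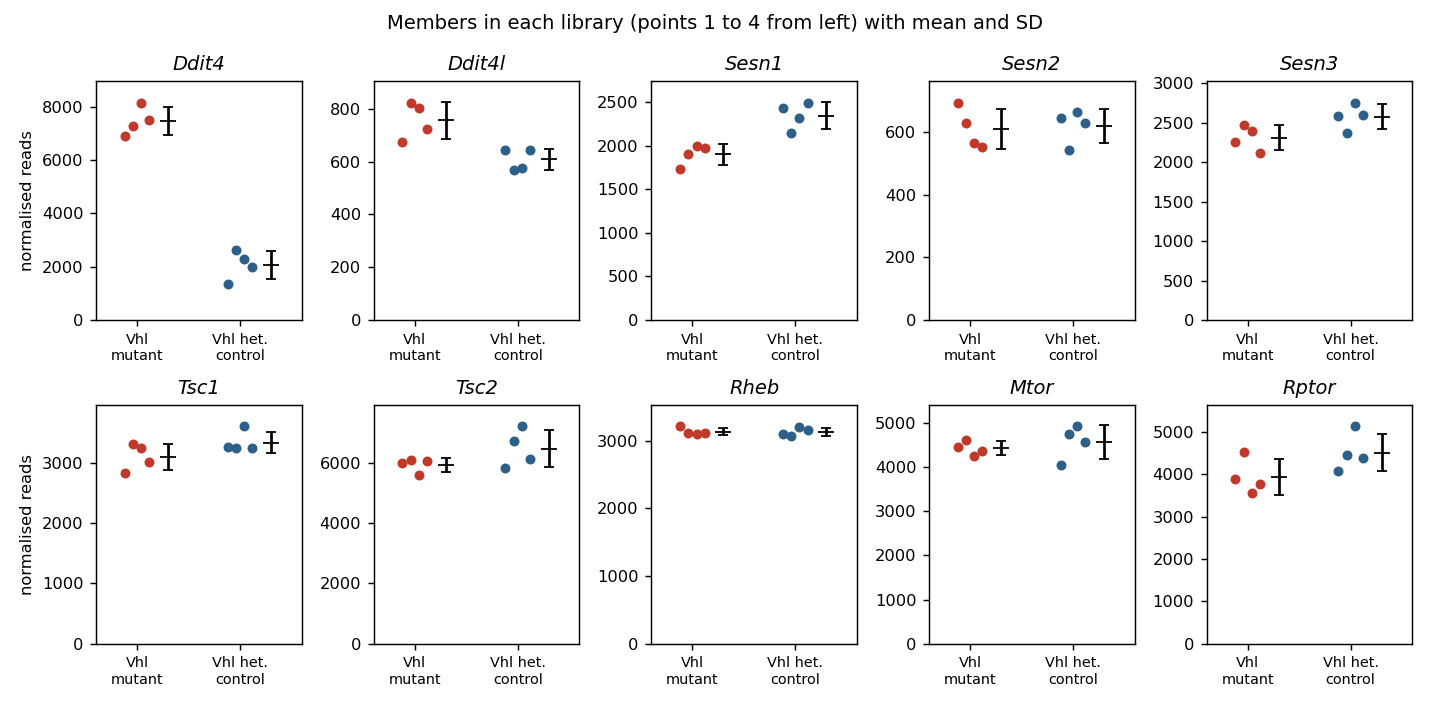
Normalised reads of each member (vertical axes start at 0) in the 4 mutant and the 4 control libraries, with the mean and SD beside the points. Ddit4 lies between 6897.5 and 8144 in mutants and between 1357 and 2624 in controls, while the points of Rheb, Mtor and Sesn2 overlap.

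Ddit4 (chromosome 10, 59949669 to 59951834, mm10) had 6897.5, 7287, 8144 and 7510 normalised reads in mutants 1 to 4, against 1357, 2624, 2295 and 1991 in controls 1 to 4. Every mutant library was above every control library. The means were 7459 ± 522 in mutants and 2066 ± 539 in controls (SD, n = 4 each), so the spread within controls was the wider one in relative terms, with control 1 the lowest. The log2 fold change was 1.89 (SE 0.19, 95% interval 1.46 to 2.32, limma adjusted p = 0.000599). By size this was rank 79 among the rises of 15381 genes. Leaving out any 1 library gave between 1.70 and 2.02. The limma adjusted p was then between 6.45e-07 (without control 1) and 0.00554 (without mutant 3). The authors' deposited table gives 1.85 with an adjusted p of 1.25e-30.

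Ddit4l, also called REDD2, is a paralog of Ddit4 that restrains mTORC1 in a similar way (chromosome 3, 137621612 to 137628333, mm10). It had 673.5, 822.5, 802 and 724.5 normalised reads in mutants 1 to 4, against 644, 569, 576 and 643 in controls 1 to 4. The groups did not overlap, but mutant 1 lay close to the highest control. Its log2 fold change was 0.31 (SE 0.08, 95% interval 0.13 to 0.50, adjusted p = 0.0443), with means of 756 ± 69.2 in mutants and 608 ± 41.3 in controls (SD, n = 4 each). The call was lost without mutant 2, 3 or 4 (adjusted p = 0.116, 0.121 and 0.092) and without control 2, 3 or 4 (0.124, 0.103 and 0.0706). Without both control 3 and mutant 2 the adjusted p was 0.209. Skeletal muscle is a site of Ddit4l expression, and of 5 muscle markers 2 were abundant enough to test. The summed level of the 5 was between 545 and 584 normalised reads in mutants and between 351 and 383 in controls. Tnnt3, a troponin gene, made up most of it and was called, at 401 to 486 in mutants and 241 to 296 in controls, while Acta1, an actin gene, overlapped (86.6 to 135.4 in mutants, 71.0 to 102.1 in controls) and Myog, Myh3 and Ckm had at most 9.5 normalised reads in any mutant and 19.4 in any control. The part of these transcripts in the Ddit4l result was not tested.

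The ratio of Ddit4 to Ddit4l reads was 10.2, 8.86, 10.2 and 10.4 in mutants 1 to 4, against 2.11, 4.61, 3.98 and 3.10 in controls 1 to 4. The log2 ratio was higher in mutants by 1.58, with every mutant above every control. A two-sided exact permutation test gave p = 0.0286, the smallest that 4 against 4 libraries allow, and 0.143 after Benjamini-Hochberg adjustment over the 5 paralog pairs compared.

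Sesn1 was lower in mutants, and it was the sestrin that was called. Sestrin 1 is a target of p53 that restrains mTORC1 and limits peroxides (gene on chromosome 10, 41809935 to 41908424, mm10). It had 1736, 1903, 1999 and 1973 normalised reads in mutants 1 to 4, against 2430, 2143, 2314 and 2494 in controls 1 to 4. All 4 mutants lay below all 4 controls. Its log2 level fell by 0.30 (SE 0.07, 95% interval -0.45 to -0.15, adjusted p = 0.0171), with means of 1903 ± 118 in mutants and 2345 ± 154 in controls (SD, n = 4 each). Without control 4 the adjusted p was 0.0643, and without both control 3 and mutant 2 it was 0.0774. The summed level of 5 podocyte markers was between 949 and 2303 normalised reads in mutants and between 1375 and 7252 in controls. Their part in the Sesn1 result was not tested. In sorted bulk cells, fewer cells of a type and less RNA per cell cannot be told apart.

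Sesn2, which encodes a leucine sensor of the GATOR arm and is induced by ATF4 and p53, was at 694, 629, 567 and 553 normalised reads in mutants 1 to 4, against 646, 543, 666 and 628 in controls 1 to 4. The groups overlapped over most of their range. Its log2 fold change was -0.03 with a 95% interval of -0.23 to 0.18 (adjusted p = 0.912), and the sign turned without mutant 3 (0.01), mutant 4 (0.02) or control 3 (0.01). Sesn3, a target of FoxO factors, had 2256, 2476, 2397 and 2122 in mutants 1 to 4, against 2585, 2370.5, 2754 and 2599 in controls 1 to 4. Only mutants 1 and 4 were below every control. The difference was -0.16 (95% interval -0.30 to -0.01, adjusted p = 0.182), and weighting the libraries by quality gave an adjusted p of 0.0457. That weighting called 2996 of all tested genes, against 1297 without it.

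The sestrins were not shown to differ from each other in their change, by a test with little room to show it. The smallest exact permutation p here is 0.0286, which for Ddit4 over Ddit4l became 0.143 after adjustment over the 5 pairs. The log2 ratio of Sesn1 to Sesn2 was 1.64 ± 0.24 in mutants and 1.92 ± 0.09 in controls (SD, n = 4 each, two-sided exact permutation p = 0.0857, adjusted 0.191). For Sesn1 to Sesn3 the difference was -0.14 (exact permutation p = 0.114, adjusted 0.191), and for Sesn2 to Sesn3 it was 0.13 (p = 0.171, adjusted 0.214). Per length of exon, Sesn1 made up between 55.6% and 62.4% of the sestrin reads in mutants and between 61.0% and 64.1% in controls. The share of Sesn2 was between 19.8% and 25.5% in mutants and between 18.4% and 20.1% in controls.

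The genes of the TSC complex were not called. Tsc1, which stabilises the complex, was at 2834, 3314, 3241 and 3017 normalised reads in mutants 1 to 4, against 3261, 3242, 3606.5 and 3248 in controls 1 to 4. Control 3 stood above the other controls, and mutants 1, 3 and 4 lay below the lowest control. The difference was -0.11 (95% interval -0.25 to 0.03, adjusted p = 0.355). Tsc2, which encodes the part that acts on Rheb, had 5997, 6107, 5600 and 6049 in mutants 1 to 4, against 5831, 6719.6, 7202.5 and 6128 in controls 1 to 4. Controls 2 to 4 lay above every mutant, and control 1 lay within the range of the mutants. The difference was -0.12 (95% interval -0.27 to 0.03, adjusted p = 0.341). The ratio of Tsc1 to Tsc2 differed by 0.01 on the log2 scale (exact permutation p = 0.857, also after adjustment). Exons of Tsc2 overlap those of Pkd1 on the other strand, and no source read here states a strand setting for the counting, so its count is uncertain.

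Rheb was the steadiest member. It had 3209, 3109, 3090.4 and 3115 normalised reads in mutants 1 to 4, against 3094, 3067, 3199.5 and 3159.7 in controls 1 to 4. The means were 3131 ± 53.2 in mutants and 3129.9 ± 60.6 in controls (SD, n = 4 each). The 95% interval of the log2 fold change was -0.10 to 0.10 (adjusted p = 0.997). Its sign therefore carries no direction: it was 0.0005 with all libraries, and -0.01 without mutant 1, control 1 or control 2.

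Mtor, the kinase, had 4451, 4616, 4242 and 4368 normalised reads in mutants 1 to 4, against 4037, 4746, 4915 and 4565 in controls 1 to 4. All mutants fell within the range of the controls. The log2 fold change was -0.04 (95% interval -0.19 to 0.10, adjusted p = 0.751). Rptor, which encodes the subunit that recruits substrates, had 3883, 4535, 3568.5 and 3761 in mutants 1 to 4, against 4076, 4452, 5130.0 and 4388 in controls 1 to 4. Mutants 1, 3 and 4 lay below every control and mutant 2 above 3 of them. The difference was -0.20 (95% interval -0.39 to -0.01, adjusted p = 0.199). Exons of Rptor overlap those of Rptoros on the other strand, so its count is uncertain in the same way.

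**Figure D2:**
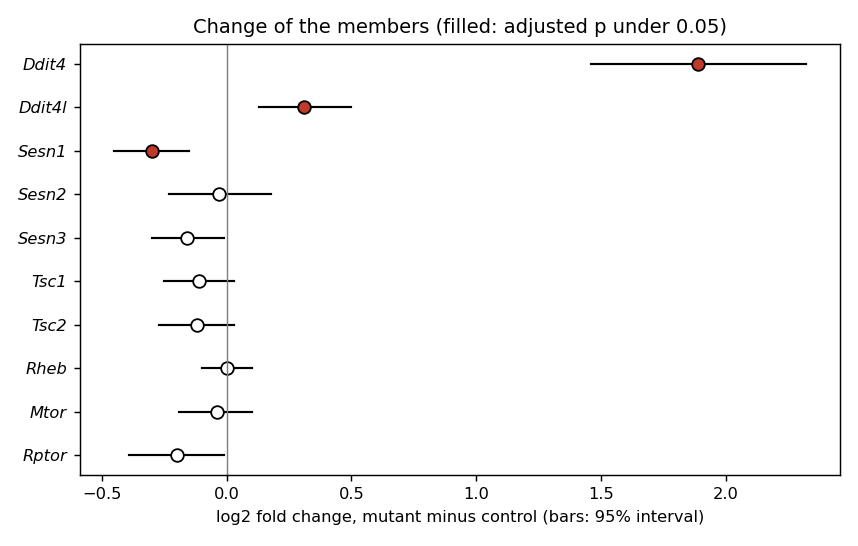
Log2 fold change of each member, mutant minus control (horizontal axis), with its 95% interval from limma. Ddit4 at 1.89 stands away from the others, which lie between -0.30 and 0.31; filled points have an adjusted p under 0.05.

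Levels can be compared between genes only per length, here as normalised reads per kb of annotated exon (all isoforms of a gene joined). On that scale Ddit4 was the most abundant member in both groups, at 4250 ± 297 in mutants and 1177 ± 307 in controls (SD, n = 4 each). It stood above 97.6% of tested genes in mutants and above 87.8% in controls, of the 14927 with a known length. In controls Tsc2 (673 ± 63.6) and Sesn1 (589 ± 38.7) followed, then Mtor (452 ± 37.6), Rheb (405 ± 7.85), Rptor (335 ± 33.0) and Tsc1 (282 ± 15.1), each SD with n = 4. Ddit4l (208 ± 14.2), Sesn2 (179 ± 15.6) and Sesn3 (169 ± 10.3) were lowest. The ranges of control libraries overlapped between the neighbours Sesn2 and Sesn3, Mtor and Rheb, Rptor and Tsc1, and Tsc2 and Sesn1. Within a library, Sesn2 was above Sesn3 and Rptor above Tsc1 in 4 of 4 controls, while Mtor was above Rheb and Tsc2 above Sesn1 in 3 of 4. In mutants Ddit4l (259 ± 23.7) reached the level of Tsc1 (262 ± 18.5), and Sesn1 was at 478 ± 29.7. The long annotated exons of Sesn3 (15269 bases in all) lower its level per kb if not all of them are used in these cells.

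**Figure D3:**
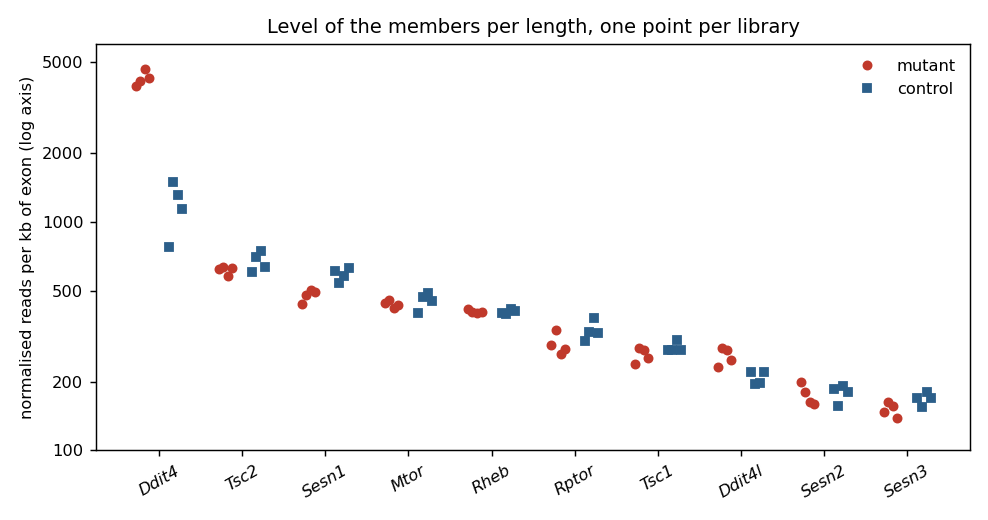
Normalised reads per kb of exon (log axis) for the members, ordered by their control mean, with 1 point per mutant library (circles, left) and per control library (squares, right). Ddit4 lies between 3930 and 4640 in mutants and between 773 and 1495 in controls, above every other member.

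Most other genes of the pathway were not called. Of 99 genes in 6 lists, each counted once, 8 rose, 3 fell and 88 were not called, which is 8.08% higher and 3.03% lower, against 5.4% and 3.03% of all tested genes. Their median log2 fold change was -0.02, against -0.007 over all tested genes. Before adjustment 12 of the 99 passed p under 0.05 upward and 8 downward, where 12% and 11.2% of all tested genes did. The shares over all tested genes given here are also the background for the counts of each list below. Without mutant 3, mutant 4, control 2 or control 4 the number of risen genes was 5, and it was 4 without both control 2 and mutant 2.

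A list of other subunits and assembly factors of mTORC1 and mTORC2 also held Tbc1d7, a subunit of the TSC complex. Among its 11 genes 0 rose, 1 fell and 10 were not called. Without adjustment (p under 0.05) 0 stood higher and 2 lower. The fallen gene was Prr5, which encodes a subunit of mTORC2. It had 619.7 ± 51.7 normalised reads in mutants and 803 ± 23.7 in controls (SD, n = 4 each, log2 fold change -0.38, adjusted p = 0.00878). This call was lost with the deposited values as they are (adjusted p = 0.061) and without both control 2 and mutant 2 (0.0625). Telo2, an assembly factor of mTOR and related kinases, was at 1779 ± 98.3 in mutants and 2096 ± 163 in controls (SD, n = 4 each, adjusted p = 0.0576), a gene that the authors' deposited table calls (adjusted p = 0.0185). That table calls 12.5% of 15144 genes, where limma called 8.43% of 15381. Mlst8, a core subunit of both complexes, and Mapkap1, a subunit of mTORC2, had adjusted p of 0.221 and 0.222. Deptor and Akt1s1, which encode inhibitory subunits, had log2 fold changes of 0.26 and -0.09 (adjusted p = 0.506 and 0.467); they were named after their values were seen.

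In the amino acid sensing arm, 1 of 26 genes rose, 1 fell and 24 were not called. Seh1l, a subunit of GATOR2 and of the nuclear pore, had 7498 ± 634 normalised reads in mutants and 5799.7 ± 186 in controls (SD, n = 4 each, log2 fold change 0.37, adjusted p = 0.00511). Flcn, folliculin, which acts on the Rag GTPases, fell by 0.30 (adjusted p = 0.0112) to 1612 ± 85.6 in mutants, against 1983 ± 106 in controls (SD, n = 4 each). The calls of Seh1l and Flcn were lost with the deposited values as they are (adjusted p = 0.109 and 0.1). Castor2 (listed as Gatsl2), whose product binds GATOR2, was at 709.8 ± 76.5 in mutants and 877 ± 79.8 in controls (SD, n = 4 each, adjusted p = 0.0689). It was called by the authors' deposited table (adjusted p = 0.0331), which calls 12.5% of its genes. Castor2 was also called without mutant 2 or control 1 (adjusted p = 0.0459 and 0.049). Rraga, the gene of the GTPase RagA, had a log2 fold change of 0.15 (adjusted p = 0.132).

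Of 20 genes for growth factor and energy input, 2 rose, 0 fell and 18 were not called; without adjustment (p under 0.05) 2 stood higher and 1 lower. Prkab2, a regulatory subunit of AMPK, the kinase that senses low energy and restrains mTORC1, rose 1.51-fold. It had 1237, 1266, 1396 and 1385 normalised reads in mutants 1 to 4, against 939, 870.0, 896 and 793.5 in controls 1 to 4 (adjusted p = 0.000303). The groups were well apart, and the call held without any 1 library (adjusted p up to 0.0024). Strada, a partner of the AMPK kinase LKB1, and Prkab1 had log2 fold changes of -0.17 and -0.13 (adjusted p = 0.151 and 0.256).

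Of 20 substrates and translation effectors, 1 rose, 0 fell and 19 were not called; without adjustment (p under 0.05) 2 stood higher and 0 lower. Eif4e, the cap-binding protein that acts in translation downstream of mTORC1, was at 7334 ± 341 normalised reads in mutants and 6356 ± 189 in controls (SD, n = 4 each, log2 fold change 0.21, adjusted p = 0.0372). It lost its call without mutant 2, 3 or 4 (adjusted p = 0.0846, 0.0896 and 0.127) and without control 2, 3 or 4 (0.117, 0.0677 and 0.0748). Eif4ebp1, the repressor of that protein that mTORC1 phosphorylates, had a log2 fold change of 0.21 (adjusted p = 0.124). Its paralog Eif4ebp2 had one of -0.14 (adjusted p = 0.249). Rps6kb1, the gene of S6 kinase, had 3383 ± 302 in mutants and 3019 ± 336 in controls (SD, n = 4 each, adjusted p = 0.28).

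**Figure D4:**
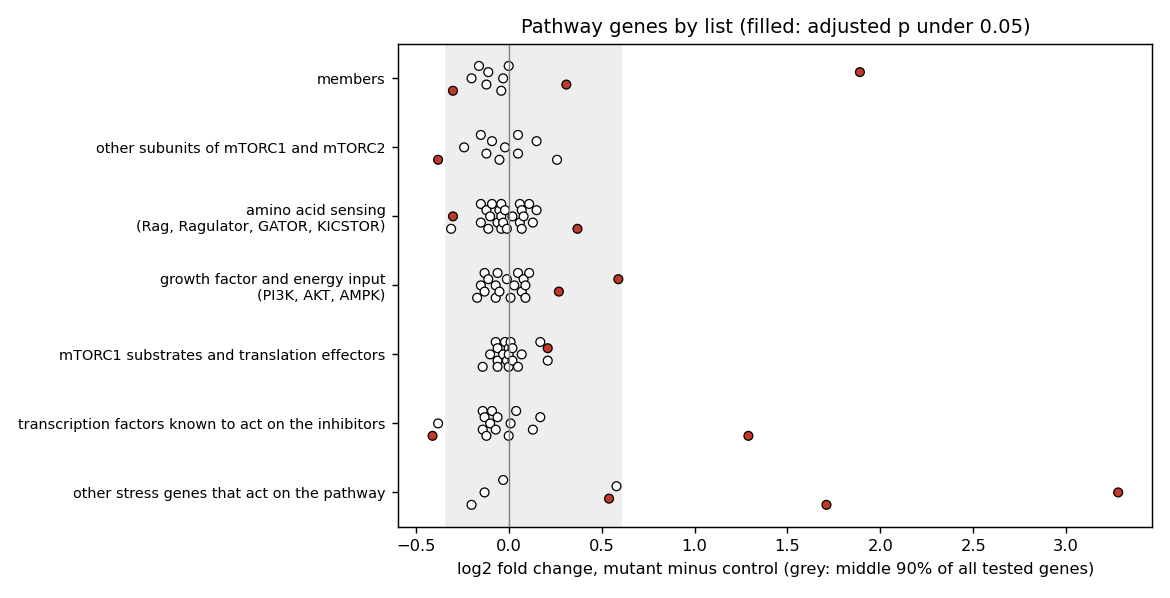
Log2 fold change, mutant minus control (horizontal axis), of the tested genes of each list, with filled points at an adjusted p under 0.05 and a grey band over the middle 90% of all tested genes. Bnip3 at 3.28, Ddit4 at 1.89, Trib3 at 1.71 and Trp63 at 1.29 lie to the right of the band.

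Of 16 transcription factors known to act on the inhibitors, 1 rose, 1 fell and 14 were not called. Hif1a, which encodes an oxygen-regulated HIF subunit that acts on Ddit4, fell by 0.41 (adjusted p = 0.00436). For this and the other factors of the list only transcripts were measured, not protein or activity. Trp63, a p53 relative that can induce Ddit4, had 34.1, 21.3, 41.3 and 27.5 normalised reads in mutants 1 to 4, against 17.5, 10.8, 7.3 and 13.4 in controls 1 to 4 (log2 fold change 1.29, adjusted p = 0.0261). These are low levels, and the call was lost without mutant 1, 3 or 4 (adjusted p = 0.0584, 0.0875 and 0.066) and without control 2, 3 or 4 (0.0689, 0.0538 and 0.053). Trp53, the gene of p53, was at 6142 ± 339 in mutants and 6781 ± 412 in controls (SD, n = 4 each, adjusted p = 0.203). Foxo3, which acts on sestrin genes, had a log2 fold change of 0.17 (adjusted p = 0.193). Atf4, whose product induces Sesn2 and Ddit4 in the integrated stress response, was at 10076 ± 845 in mutants and 10906 ± 2239 in controls (SD, n = 4 each, adjusted p = 0.729).

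Of 7 other stress genes that act on the pathway, 3 rose, 0 fell and 4 were not called. That is 42.9% higher, against 5.4% of all tested genes. Without adjustment (p under 0.05) 3 stood higher and 0 lower, where 12% and 11.2% of all tested genes did. The list was chosen with earlier results of these data known and holds Bnip3, so its count describes these 7 genes only. Bnip3, a mitophagy receptor that also binds Rheb, rose 9.74-fold (adjusted p = 7.9e-11). Trib3, an ATF4 target whose product binds AKT, had 37.9, 50.1, 50.3 and 71.1 normalised reads in mutants 1 to 4, against 9.7, 22.6, 13.6 and 16.3 in controls 1 to 4. It rose 3.28-fold from this low level with no overlap (adjusted p = 0.00341). Rnf152, a ubiquitin ligase that acts on RagA, rose 1.45-fold to 345.7 ± 31.8 in mutants, against 237 ± 10.6 in controls (SD, n = 4 each, adjusted p = 0.00499). Without both control 2 and mutant 2 the adjusted p of Rnf152 was 0.0502. Pml, a nuclear body protein reported to keep mTOR from associating with Rheb, had a log2 fold change of -0.13 (adjusted p = 0.283). As points of reference, the HIF target Vegfa rose 2.27-fold (adjusted p = 1.52e-06), less than Ddit4 in point estimate. Cdkn1a, a p53 target and cell cycle inhibitor, rose 1.67-fold (adjusted p = 0.000558), while the p53 target Sesn1 fell. Exons of Hif1a overlap genes on both strands. Exons of Seh1l, Prkab2, Bnip3, Rnf152, Rps6kb1, Mlst8, Pml and Cdkn1a overlap a gene on the other strand, and those of Strada and Eif4e one on the same strand, so their counts are uncertain.

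The genes whose levels followed each called member most closely over the 8 libraries were found by Pearson correlation of log2 values, a measure that the step between the groups dominates and that is given as a description only. For Ddit4 they were Rnf165 (r = 0.993), 9630001P10Rik (0.99) and Mrap2 (0.989). For Ddit4l they were Ifi27 (0.983), Gm13154 (0.975) and Prpf18 (0.973). For Sesn1 they were Nqo2 (0.973), Hif1a (0.972) and D16Ertd472e (0.97).

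Markers of other cell types were present, those of stroma at high levels: Col3a1, a fibrillar collagen gene, reached 18518 normalised reads in mutants and 24588 in controls. In the lists for the maturing tubule, ureteric bud, stroma, endothelium, leukocytes and erythroid cells, Plvap of endothelium was the single gene that limma called (higher in mutants). In the nephron progenitor list Osr1 and Meox1 were called lower. Summed stromal markers lay between 18534 and 39491 normalised reads in mutants and between 22450 and 50270.3 in controls. The ureteric bud sums were between 1055 and 2746 in mutants and between 517 and 2261 in controls, and the tubule sums between 3715 and 8585 in mutants and between 2149 and 7596 in controls. Those of endothelium were between 1310 and 1766 in mutants and between 875 and 1784 in controls, and those of leukocytes between 465 and 758 in mutants and between 415 and 827 in controls. Of 5 erythroid markers, 3 were used here, with sums between 63.1 and 129.8 in mutants and between 75.6 and 129.4 in controls. Mutant 2 and control 3 had the lowest sums of their group for the tubule, ureteric bud, stromal, endothelial and leukocyte lists. Without these 2 libraries Ddit4 kept its call (log2 fold change 1.96, adjusted p = 0.00446).

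**Figure D5:**
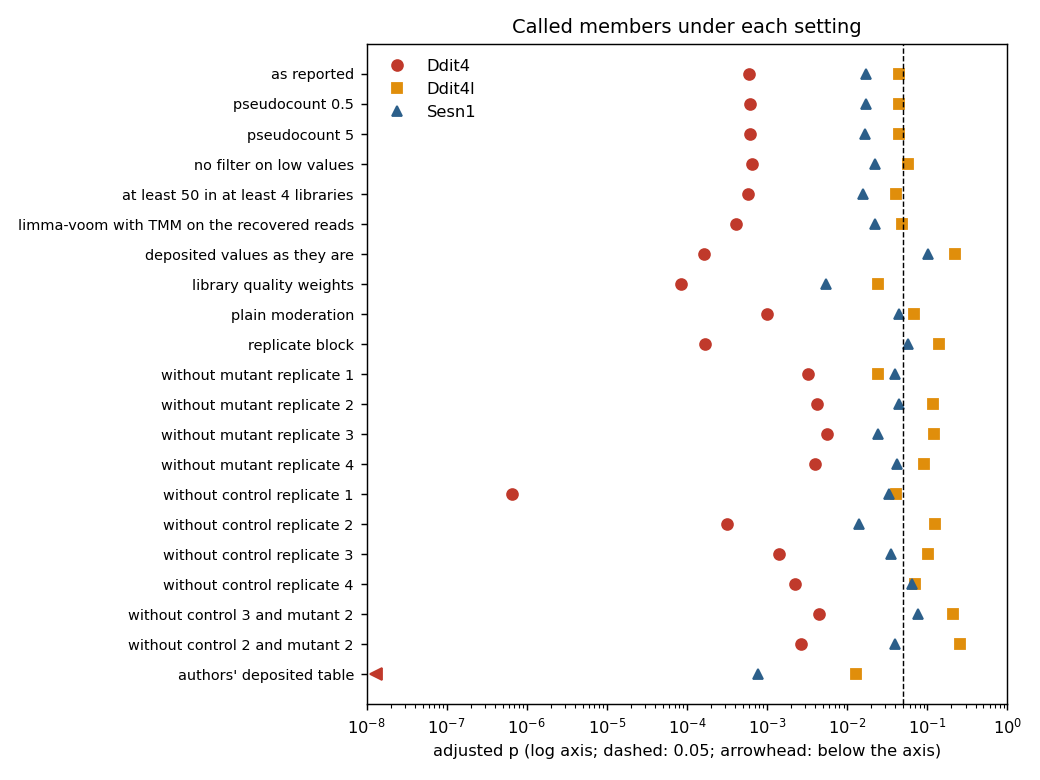
Adjusted p (log axis) of Ddit4, Ddit4l and Sesn1 under each setting, with the dashed line at 0.05 and an arrowhead for a value below the axis. Ddit4 stays left of the line under every setting, while Ddit4l and Sesn1 lie on both sides of it.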

How the data were processed

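Polyadenylated RNA of sorted cells was made into stranded libraries, per the labels' protocols. STAR 2.5.3a, DESeq2 1.18.1 and mm10 are named in the submitters' processing notes. The counter, annotation and strand setting are not stated there or in the labels. A signal per library was deposited. Judged from the values, it is reads per gene over a size factor, divided once more by the same factors recycled down the genes (0.872 to 1.078) and rounded. Both divisions were undone, and whole reads rebuilt the deposited mean within 1e-09 for 20254 of 20254 genes. With a single division, 0 of the 11635 genes that reach 100 in every library could be rebuilt. The log2 fold changes and p-values that the authors deposited served as an alternative. Their deposited score was left aside.

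A gene was tested if 4 or more libraries had 10 or more normalised reads. limma 3.58.1 in R 4.3.3 was run on log2(value + 1) with trended, robust variances and no covariate, and was tested on simulated data. Alternatives changed the filter, pseudocount, scaling, weights, moderation, block and libraries. Positions are from GENCODE M21 on mm10, and upstream sequences from RefSeq (10 of 10 members matched). The members and lists were chosen with earlier results of these data known, and the paralog ratios after values were seen. Named genes are all members, Vhl, the called genes of each list with the next smallest adjusted p up to 4, Vegfa, Bnip3, Atf4 and Cdkn1a, and the 3 closest genes of each called member. Some genes that this rule or the marker lists would name are not reported here. Depth was 37252683 to 46515762 reads per library, and the part of counting noise in the spread between libraries was not tested.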

Additional observations from a re-analysis of the deposited data

Results flagged for a closer look

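In 5 of 76 groups of 4 libraries examined (the mutant and the control libraries of 38 named genes), 1 library lay apart, with a gap to its nearest neighbour that exceeded Dixon's 95% critical share of the whole range. Chance alone sets about 1 in 20 groups apart, and no explanation was weighed. Tsc1 was at 3606.5 normalised reads in control 3, against 3242 to 3261 in the other controls. Mlst8 was at 1540.3 in control 3, against 1341 to 1351 in the others. Mapkap1 was at 2940.5 in control 1 (others 3186 to 3232) and Trp53 at 6167.3 in control 1 (others 6928 to 7045). Strada was at 1109.3 in mutant 3, against 1243 to 1257 in the other mutants.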

How the results depend on the processing

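Ddit4 kept its direction and its call in each of 20 alternatives, with log2 fold changes between 1.70 and 2.03. The planned edgeR and DESeq2 tests of recovered reads were not run. The unit of the deposited values was recorded as a signal, for which limma was used throughout, including limma-voom on the recovered reads. Labels share replicate numbers, but deviations of same-numbered libraries correlated by 0.21, -0.14, -0.14 and 0.06, and mutant 2 went best with control 3, so the numbers were not taken as pairs. With the replicate block, 766 genes were called (550 higher, 216 lower), with 1 and 0 members and 5 other pathway genes higher and 2 lower. The deposited values as they are gave 697 (537 and 160), 1 and 0 members, and 5 and 1 pathway genes. Quality weights gave 2996 (1622 and 1374), 2 lower members and 8 lower pathway genes. Without control 3 and mutant 2 there were 743 (522 and 221) and 1 and 0 members; without control 2 and mutant 2, 637 (466 and 171), 1 higher member and 4 higher pathway genes. Members called higher were 1 with no filter on low values and 1 with plain moderation. Leaving out 1 library gave 749 (without mutant 4) to 1572 genes (817 without control 4), 519 to 919 higher and 230 to 653 lower, 1 to 2 members higher and 0 to 1 lower, and 5 to 8 pathway genes higher and 3 to 4 lower. Ddit4l was not called with no filter (adjusted p = 0.0576), plain moderation (0.0676), the deposited values (0.222), the replicate block (0.141) or without control 2 and mutant 2 (0.253), nor was Sesn1 with the deposited values (0.103) or the block (0.057), nor Flcn with the block (0.0515). Signs reversed for Rheb with quality weights (-0.0036) and without control 2 and mutant 2 (-0.01), for Sesn2 between -0.09 and 0.02 and Rheb between -0.01 and 0.01 without 1 library, and for Atf4 without control 2 and mutant 2 (0.07) and without control 2 (0.02, range without 1 library -0.19 to 0.02). The cause of these changes was not tested. Of 200 alternative results for members, 175 kept direction and side of the threshold, and of 538 for other named genes 492 did. Scaling moved the median of all genes by less than the 0.1 that would call for a correction. What depth limits was not tested gene by gene.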
